A study of Mus musculus with 3 samples.

Results

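The genes described here were the heavy chain variable (Ighv) segments of the mouse: every row of the gene count table whose Entrez identifier RefSeq pairs with a symbol starting with Ighv. They numbered 116 of 26286 rows, and 24176 of all rows had a RefSeq symbol. RefSeq lists 183 Ighv symbols, and the 67 with no row, 63 of them V pseudogenes, were not analysed here. The number after Ighv gives the subfamily, and all 16 subfamilies were represented. By subfamily, 66 genes were distal (subfamilies 1 and 8, the first known as J558), 31 were in the middle subfamilies and 19 were proximal (subfamilies 2 and 5, the first known as Q52).

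All values came from 3 RNA-seq libraries of normal pre-B cells sorted from bone marrow as GFP+, B220+, IgM–, Kit– and CD25+, and the series had no second condition. The donors were CAG-rtTA3;TRE-GFP-shLuc.1309 bitransgenic mice given Dox (doxycycline) for 3 days, which induces a GFP-linked control shRNA. CAG is a ubiquitous promoter, rtTA3 is the Dox-dependent activator that it drives, and shLuc.1309 is directed at luciferase, so every library carries the transgenes, the drug and the shRNA. The labels give neither age, strain nor the number of animals behind a library. P-values therefore measure only the spread between these 3 libraries, in which technical and donor differences cannot be told apart. Replicate 1 stood apart in sex-linked genes: Xist, transcribed from the inactive X chromosome, had 22609, 94 and 70 counts in replicates 1, 2 and 3, and the Y-linked gene Ddx3y had 1, 1950 and 4881. By these genes, replicate 1 had a female pattern and replicates 2 and 3 a male one. Every comparison with replicate 1 below is thus also between sexes, and the part of sex was not tested.

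A heavy chain gene is assembled in the early B cell by joining a V, a D and a J segment, after which the joined V segment is transcribed together with the constant exons. A pre-B cell has completed that step on at least one allele, and its mu mRNA begins with the V segment it used. Unrearranged V segments also give germline transcripts, and segments can differ between mouse strains. Total RNA counted by gene cannot separate rearranged from germline transcripts, nor more cells using a segment from more RNA per cell. The RAG recombinase makes the cut, and proteins such as Pax5, Ezh2, Yy1 and Ikzf1 are known for their part in bringing distal V segments within reach of the D and J segments.

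The V exon ends just after a conserved cysteine codon that precedes the joint to D, and this end shows how the subfamilies differ. The last 60 bases are shown for the highest segments of subfamilies 8, 1, 9, 2, 3, 5, 6 and 14, and for the 4 segments with no count in any library. They are the sense strand of GENCODE M21 transcripts (GRCm38) of the chromosome 12 locus, 5′ to 3′, with the cysteine codon in capitals where the search found it.
Ighv8-8: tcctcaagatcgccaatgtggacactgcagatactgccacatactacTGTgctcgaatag
Ighv1-26: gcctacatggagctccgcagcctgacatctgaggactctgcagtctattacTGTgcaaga
Ighv9-3: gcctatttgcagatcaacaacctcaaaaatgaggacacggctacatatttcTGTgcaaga
Ighv2-2: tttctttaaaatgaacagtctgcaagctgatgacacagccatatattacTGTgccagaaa
Ighv3-6: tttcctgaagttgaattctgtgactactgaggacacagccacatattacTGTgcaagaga
Ighv5-17: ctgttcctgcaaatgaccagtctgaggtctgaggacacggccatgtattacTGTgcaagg
Ighv6-3: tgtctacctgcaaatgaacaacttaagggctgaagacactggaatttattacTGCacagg
Ighv14-2: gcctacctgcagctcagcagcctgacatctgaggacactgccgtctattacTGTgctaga
Ighv1-62-1: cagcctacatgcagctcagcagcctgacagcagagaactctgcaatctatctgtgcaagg
Ighv13-1: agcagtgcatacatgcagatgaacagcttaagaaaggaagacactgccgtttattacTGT
Ighv16-1: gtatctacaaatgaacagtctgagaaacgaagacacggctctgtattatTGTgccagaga
Ighv8-14: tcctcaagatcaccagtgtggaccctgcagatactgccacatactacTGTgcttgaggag
The cysteine codon was searched for as TGT or TGC after a tyrosine codon and a tyrosine or phenylalanine codon in the last 36 bases. It was found in 110 of 116 segments, and Ighv1-62-1 is among the 6 in which it was not.

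The 116 segments together received 13362 reads in replicate 1, 13541 in replicate 2 and 34508 in replicate 3. Those are 0.108%, 0.113% and 0.108% of library totals of 12418054, 12021576 and 32086649 counts. Per length, on the RPKM scale (reads per kilobase of the deposited gene length, scaled to the library's total with TMM factors), the summed level of the segments was 3510, 3687 and 3499. Ighm, the mu constant region, stood at 7234, 6774 and 6239 RPKM in replicates 1, 2 and 3, so the segments' summed level per unit of Ighm level was 0.485, 0.544 and 0.561.

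No segment or small group dominated the reads. The effective number of segments, the inverse of the summed squared shares of the reads, was 54.7, 55.9 and 55.5 in replicates 1, 2 and 3. The 10 segments with the most reads held 31.8%, 30.8% and 31.3% of the Ighv reads, and 20, 22 and 21 segments were needed to reach 50% of them. Ighv8-8 had the most reads in all 3 libraries, with 4.30%, 4.61% and 4.31%. A count was recorded for 110, 110 and 112 of the 116 segments.

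**Figure D1:**
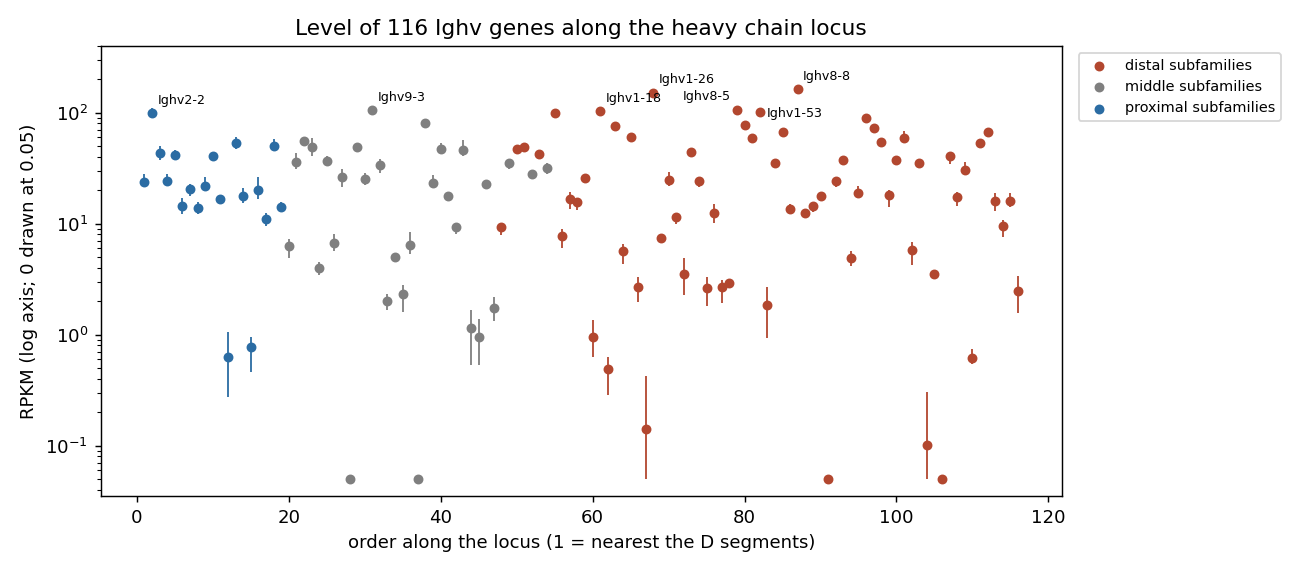
Mean RPKM of each of the 116 Ighv segments (log axis, a level of 0 drawn at 0.05) against its order along the locus, counted from the D segments; lines run from the lowest to the highest of the 3 libraries and colours give distal, middle and proximal subfamilies. High and low segments occur throughout the locus, and the 4 segments with no count sit on the bottom line.

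Of the 116 segments, 6 exceeded 100 RPKM on average, 73 lay between 10 and 100 RPKM, 25 between 1 and 10 RPKM and 12 below 1 RPKM. Ighv8-8 (Entrez 780938), a distal segment, was highest at 156, 175 and 155 RPKM in replicates 1, 2 and 3, or 162 ± 11.4 (SD, n = 3 here and for all means below). Ighv1-26 (Entrez 629884), a J558 segment, had 152, 157 and 148 RPKM. Ighv8-8 was the higher of the pair in each library, but their ranges over the libraries overlap. Next came Ighv9-3 (Entrez 780825) of the middle subfamily 9, at 108, 107 and 103 RPKM. Ighv8-5 followed at 105 ± 2.23 RPKM, Ighv1-18 at 104 ± 1.02 and Ighv1-53 at 102 ± 2.11. Those means and that of Ighv9-3 lie within a few RPKM of each other, and the order among them is not fixed beyond their spread. Ighv2-2 (Entrez 777686), the highest proximal segment, had 95.7, 111 and 93.1 RPKM. Among the 116 segments with a row, only Ighv5-2 lies nearer the D segments. Ighv1-9 at 99.4 ± 3.38, Ighv1-64 at 89.5 ± 6.69 and Ighv3-6 at 80.4 ± 5.28 RPKM completed the first 10.

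**Figure D2:**
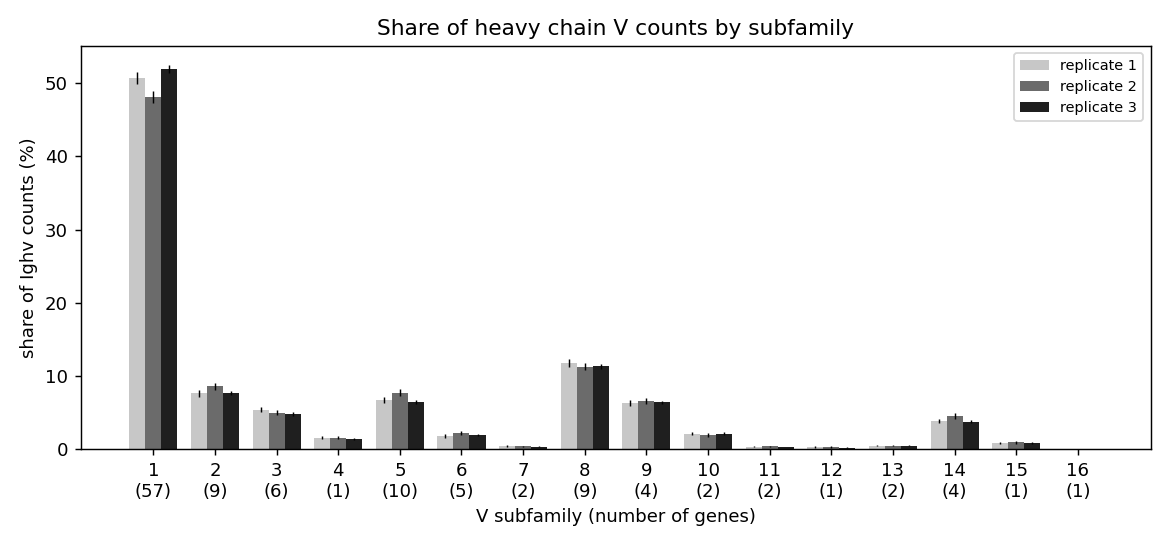
Share of the Ighv reads taken by each subfamily (percent), with a bar for each of the 3 libraries, lines for the Wilson 95% interval of counting error, and the number of segments in brackets. On average subfamily 1 holds 50.3% of the reads and subfamily 8 the next share, 11.4%.

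By subfamily, the J558 segments took the most reads, and they were also the most numerous. The 57 members of subfamily 1 held 50.3% ± 1.94 of the Ighv reads, with 50.7%, 48.2% and 51.95% in replicates 1, 2 and 3. The 9 members of subfamily 8 held 11.4% ± 0.26, the 9 of subfamily 2 7.97% ± 0.56 and the 10 of subfamily 5 6.95% ± 0.66. Of the middle subfamilies, the 4 members of subfamily 9 held 6.43% ± 0.14, the 6 of subfamily 3 5.06% ± 0.30 and the 4 of subfamily 14 4.03% ± 0.43. The shares of subfamilies 10 (2.07%), 6 (2.00%), 4 (1.48%), 15 (0.855%), 13 (0.485%), 7 (0.374%), 11 (0.323%) and 12 (0.252%) were each smaller, and subfamily 16 had no read.

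The level per segment gave another order. Ighv4-1, the only member of subfamily 4 in the table, stood at 55.2 ± 5.03 RPKM, and the members of subfamily 9 averaged 51.0 and those of subfamily 8 46.4 RPKM. Members of subfamilies 14, 1, 10, 15, 3 and 2 averaged between 31.1 and 33.2 RPKM, those of subfamily 5 25.01 and those of subfamily 6 14.7. Subfamilies 12, 13, 7 and 11 averaged 9.37, 8.85, 5.68 and 5.33 RPKM. Their highest members were Ighv12-3 at 9.37 ± 1.17, Ighv13-2 at 17.7 ± 1.06, Ighv7-2 at 6.29 ± 1.24 and Ighv11-2 at 6.64 ± 1.23 RPKM. The highest members of subfamilies 10, 14 and 15 were Ighv10-1 at 34.9 ± 3.47, Ighv14-2 at 36.8 ± 3.57 and Ighv15-2 at 31.5 ± 3.48 RPKM.

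Levels within a subfamily spanned a wide range. In subfamily 8, Ighv8-8 stood at 162 RPKM, against 1.85 ± 0.88 RPKM for Ighv8-6, its lowest member with a count. In subfamily 2, Ighv2-2 averaged 99.9 ± 9.75 and Ighv2-7 0.77 ± 0.27 RPKM. In subfamily 5, Ighv5-17 averaged 50.2 ± 6.40 and Ighv5-12-4 0.63 ± 0.40 RPKM. In subfamily 3, Ighv3-6 averaged 80.4 and Ighv3-3 2.02 ± 0.32 RPKM, and in subfamily 6, Ighv6-3 averaged 46.6 ± 8.57 and Ighv6-5 0.95 ± 0.43 RPKM. Each of these pairs was separated in every library by far more than the spread between libraries.

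Distal and proximal segments overlapped widely in level. Distal segments averaged 33.8, 33.8 and 34.1 RPKM in replicates 1, 2 and 3 (33.9 ± 0.18), and proximal segments 26.3, 31.5 and 25.9 RPKM (27.9 ± 3.12), while middle segments averaged 25.1, 27.6 and 24.3 RPKM. The log2 ratio of the distal to the proximal mean was 0.36, 0.10 and 0.40. With medians of segments in place of means it was −0.15, −0.62 and 0.15, so the direction depends on the summary and no order of the places is drawn. Ordered by the RefSeq annotation (GRCm38.p6, used for order only), the 58 segments farthest from the D segments averaged 33.6 ± 0.19 RPKM and the 58 nearest averaged 27.8 ± 1.95. Spearman's rho between mean RPKM and order from the D segments was −0.021 over the 116 segments, a description of segments that share 3 libraries. By share of reads, distal segments held 62.4% (Wilson 95% interval 61.6 to 63.3), 59.4% (58.6 to 60.3) and 63.3% (62.7 to 63.8) in replicates 1, 2 and 3. Proximal segments held 14.3% (13.7 to 14.9), 16.3% (15.7 to 16.9) and 14.1% (13.8 to 14.5). These intervals cover counting error only. The distal interval of replicate 2 lay below, and its proximal interval above, those of the other libraries.

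In replicate 2, most middle and proximal segments were higher than in the other libraries. Of the 93 segments that passed edgeR's filter on low counts (minimum count 10, minimum total 15), the library with the highest CPM was replicate 2 for 15 of 52 distal, 18 of 24 middle and 16 of 17 proximal segments. Replicate 2 was highest for 36.5% of all 12147 genes that passed the filter, replicate 1 for 28.4% and replicate 3 for 35.1%. The median log2 CPM difference of replicate 2 minus replicate 1 was −0.016 for distal, 0.20 for middle and 0.25 for proximal segments. Against replicate 3, the medians were −0.056 for distal, 0.21 for middle and 0.31 for proximal segments, with 21 of 52 distal, 22 of 24 middle and 17 of 17 proximal segments higher in replicate 2. Over all genes the medians were −0.0015 against replicate 1 and 0.0041 against replicate 3. Replicates 3 and 1 differed little in each place, with median differences of replicate 3 minus replicate 1 of 0.018, −0.048 and −0.022 for distal, middle and proximal segments.

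Among segments with more than 75% of their 50-base words found in no other Ighv gene, replicate 2 was highest for 6 of 22 distal, 12 of 18 middle and 11 of 12 proximal segments. Among distal subfamilies, it was highest for 13 of 46 segments of subfamily 1 and 2 of 6 of subfamily 8. The proximal counts were 8 of 8 for subfamily 2 and 8 of 9 for subfamily 5. Middle subfamilies varied, with 4 of 4 for subfamily 14, 3 of 4 for subfamily 9 and 2 of 4 for subfamily 3. Subfamily 10 had 1 of 2, subfamily 7 had 0 of 2, and subfamilies 6 and 11 had 2 of 2 each. Subfamilies 4, 12, 13 and 15 had 1 of 1 each. By annotated order, replicate 2 was highest for 12 of the 44 tested segments of the far 58 and for 37 of the 49 tested segments of the near 58. This shift was picked out after the values were seen, it rests on 1 library, and it was not tested as a group.

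**Figure D3:**
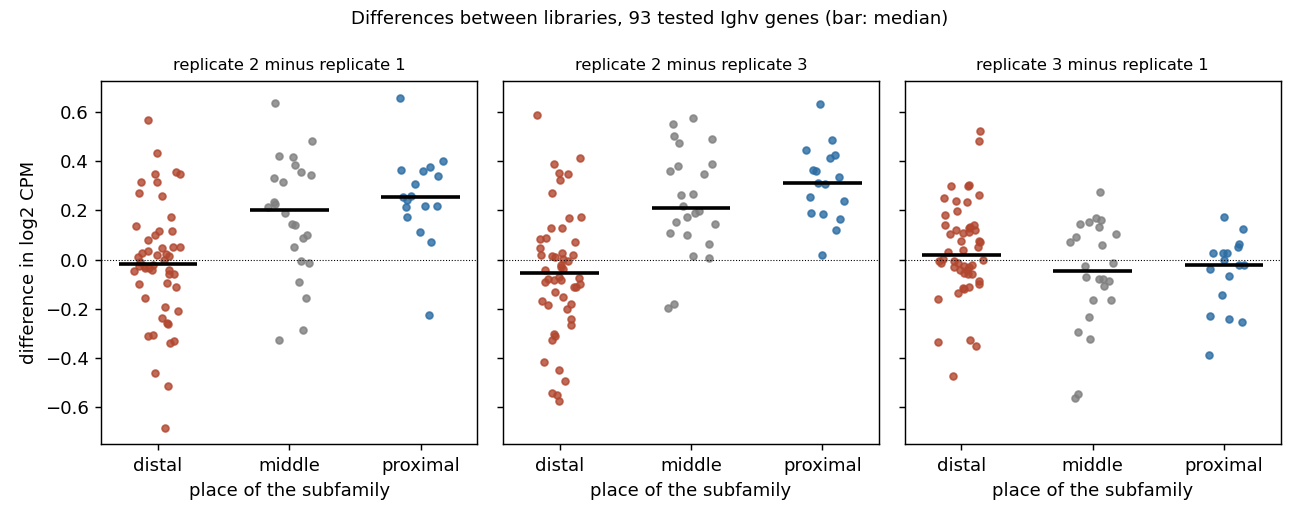
Log2 CPM difference of replicate 2 minus replicate 1, replicate 2 minus replicate 3 and replicate 3 minus replicate 1 (a panel each) for each of the 93 segments that passed the filter, by place in the locus, with the median marked. Distal segments lie around 0 in each panel, and proximal segments lie almost all above 0 in the panels with replicate 2, with medians of 0.25 and 0.31.

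The libraries were next compared gene by gene with the spread that sampling of reads alone would give. A chi-square test of each gene's 3 counts against Poisson counts in proportion to library size, adjusted by Benjamini-Hochberg over all 12147 genes, called 8 of the 93 segments, which is 8.60%, where 54.6% of all genes were called. Segments were tested at lower counts than most genes, with a median summed count of 498, against 1774 for all genes tested. Below 300 summed counts, 0 of 30 segments and 26.2% of all genes were called. From 300 to 1000 counts the values were 7 of 47 segments (14.9%) and 45.2% of all genes, and from 1000 to 3000 counts 1 of 16 segments (6.25%) and 53.4% of all genes. At an unadjusted p of 0.05, the Poisson test marked 12 segments and 59.3% of all genes. The 23 segments that did not pass the filter were not tested.

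**Figure D4:**
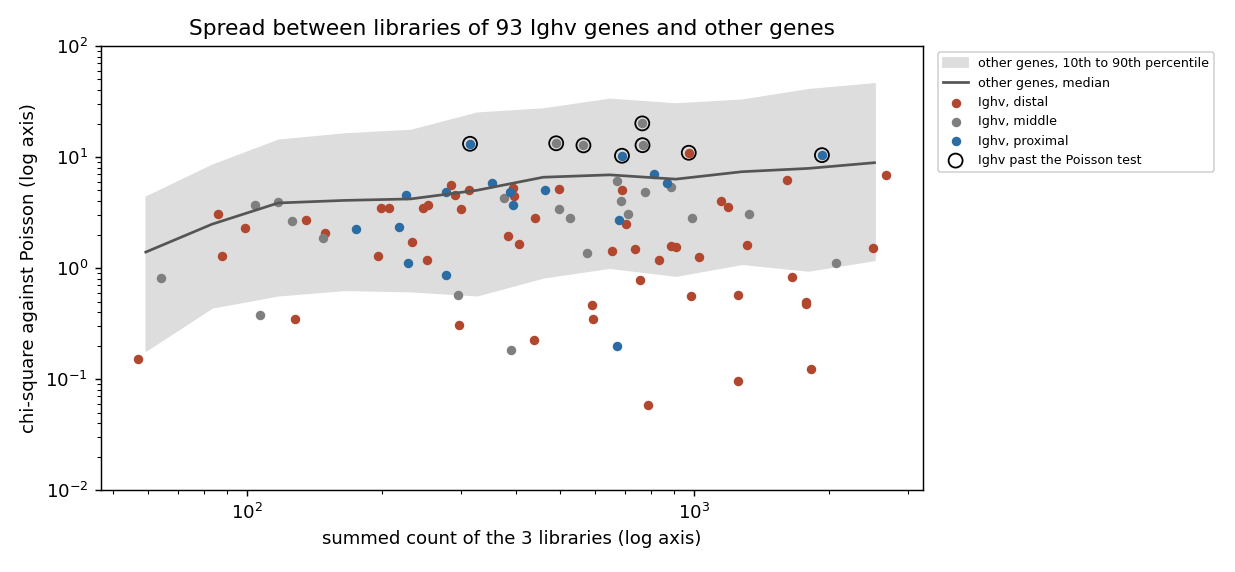
Chi-square of the 3 counts of a gene against Poisson counts (log axis) against the summed count (log axis) for the 93 Ighv segments, coloured by place, with the median and the 10th to 90th percentile of the other genes. Most segments lie below the line of the other genes' median, and the 8 circled segments passed the test.

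The 8 segments past the Poisson test were 1 distal, 4 middle and 3 proximal. Ighv3-1 had 59.1, 47.1 and 40.5 RPKM in replicates 1, 2 and 3 and the smallest adjusted p of the 8, 0.000155 (Poisson chi-square test with Benjamini-Hochberg adjustment). Ighv8-12, the distal segment, had 68.5, 54.3 and 53.7 RPKM (adjusted p = 0.0097). Ighv3-1 and Ighv8-12 were highest in replicate 1. Ighv14-3 had 26.8, 31.4 and 21.4 RPKM (adjusted p = 0.0034) and Ighv14-1 32.6, 43.7 and 30.9 RPKM (adjusted p = 0.0044). Ighv5-15 had 16.7, 26.4 and 17.02 RPKM (adjusted p = 0.0036) and Ighv5-4 44.1, 49.7 and 37.3 RPKM (adjusted p = 0.0130). Ighv6-3 had 40.4, 56.4 and 43.03 RPKM (adjusted p = 0.0043), and Ighv2-2, with the levels given above, had an adjusted p of 0.0123. These 6 were all highest in replicate 2. Without replicate 1 the count of called segments was 10 of 102, where 43.3% of all genes were called. Without replicate 2 it was 2 of 101, where 32.9% of all genes were called, and without replicate 3 it was 2 of 95, where 25.7% were.

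No segment passed the test that sets its spread against genes of like abundance. An edgeR quasi-likelihood F test of each gene's spread, with Benjamini-Hochberg adjustment over all genes, called 0 of the 93 segments, where 0.0165% of all genes were called. At an unadjusted p of 0.05 it marked 0 segments and 5.30% of all genes, and a robust fit also called 0 segments. The smallest unadjusted p among segments was 0.227 and the smallest adjusted p was 0.996.

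Replicate 3 was processed with CASAVA 1.8.0 (Illumina's software for turning sequencer output into reads) and replicates 1 and 2 with 1.8.2. The software version and the library cannot be told apart. The edgeR quasi-likelihood test with Benjamini-Hochberg adjustment called 0 of the 93 segments between replicate 3 and the other 2 libraries, where 0.0741% of all genes were called (0.0576% higher and 0.0165% lower), and DESeq2 also called 0 segments against 0.296% of all genes. At an unadjusted p of 0.05, the edgeR test marked 0 segments and 9.62% of all genes, and the smallest adjusted p among segments was 0.609. The segments' log2 fold changes ran from −0.53 to 0.38 with a median of −0.024 (−0.0070 over all genes); 36 were above 0 and 57 below.

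Segments typed as pseudogenes by GENCODE and segments with a stop codon had low levels on average. RefSeq types all 116 segments as V segments, so the pseudogene class rests on GENCODE alone. The 107 segments that GENCODE types as functional averaged 32.4, 34.1 and 32.3 RPKM in replicates 1, 2 and 3 (32.9 ± 1.00), and the 9 typed as pseudogenes 5.21, 4.70 and 4.98 RPKM (4.96 ± 0.25). The log2 ratio was 2.64, 2.86 and 2.70 in the 3 libraries, far above the spread between them. The highest pseudogenes were Ighv1-83 at 16.1 ± 3.00, Ighv1-14 at 15.7 ± 2.05 and Ighv1-70 at 5.78 ± 1.35 RPKM, so the functional and pseudogene segments overlap. Reading the 90 codons before the cysteine codon found an in-frame stop in 5 segments, Ighv1-70, Ighv1-73, Ighv1-79, Ighv1-86 and Ighv8-14, with 99, 57, 11, 36 and 0 summed counts. They averaged 2.47 ± 0.18 RPKM, and the 105 read with no stop averaged 33.2 ± 0.96 RPKM. All 5 are among the 9 that GENCODE types as pseudogenes, so this contrast is not separate from the one above. Ighv1-83 and Ighv1-14, the highest pseudogenes, were read with no stop. Ighv1-73 and Ighv1-86 had 5 stops each in the frame read back from the cysteine codon, and a shift of frame within them was not tested. The stop and its surroundings are shown for the 3 segments with exactly 1 stop, sense strand, with the stop codon in capitals.
Ighv1-70: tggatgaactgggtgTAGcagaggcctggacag
Ighv8-14: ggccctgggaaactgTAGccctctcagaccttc
Ighv1-79: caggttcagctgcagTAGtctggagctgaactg
Each of these stops is the same codon, TAG, in a different stretch of the V exon.

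The 4 segments with no count, Ighv16-1, Ighv13-1, Ighv1-62-1 and Ighv8-14, are bounded by the depth, so a count of 0 does not show that they are absent. For Ighv16-1, 3 counts would correspond to 0.808, 0.837 and 0.312 RPKM in replicates 1, 2 and 3. Segments under 10 counts in all 3 libraries together numbered 7, including those 4.

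Segments of 1 family are so alike that reads may not be assigned to a single one. The nearest relative of a segment, by identity over the last 290 bases of the transcripts, was in the same subfamily for 111 of 116 segments, and the median identity was 95.5% (range 73.8% to 100%). The median RPKM was 24.2 for the 3 segments with fewer than 25% distinct 50-base words, 18.3 for the 46 between 25% and 75%, and 20.5 for the 67 above 75%. Spearman's rho between mean RPKM and distinct words was −0.226 over the 116 segments, as a description.

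**Figure D5:**
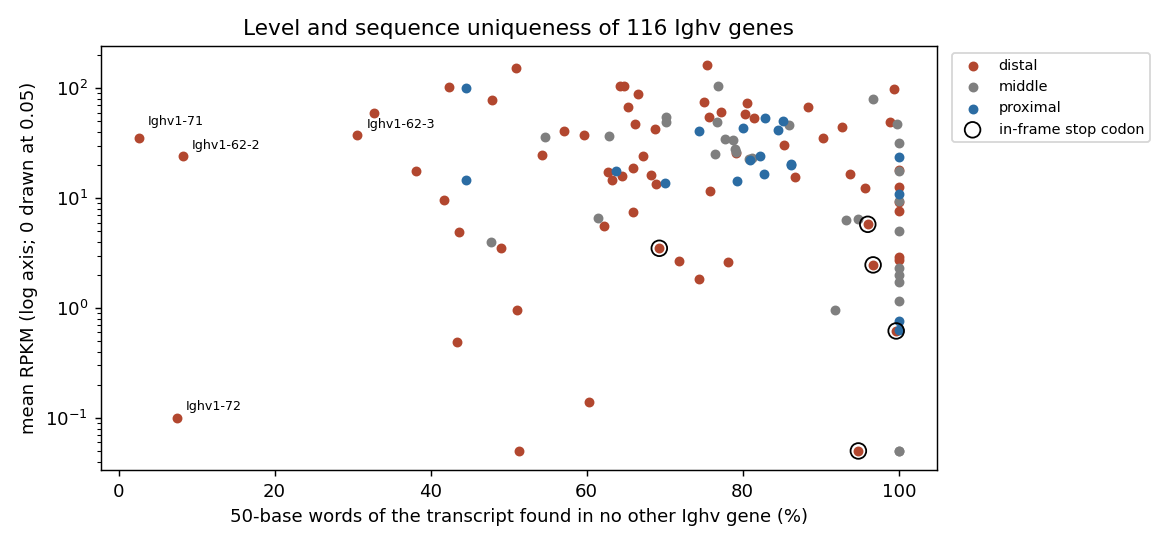
Mean RPKM of each of the 116 Ighv segments (log axis, a level of 0 drawn at 0.05) against the percentage of its 50-base words found in no other Ighv gene; colours give the place and rings the 5 segments with an in-frame stop codon. Segments with few distinct words lie at both high and low levels, and of the 3 segments under 25%, Ighv1-72 lies near the bottom while Ighv1-71 and Ighv1-62-2 lie at 35.5 and 24.2 RPKM.

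Ighv1-72 had 0, 0 and 3 counts in replicates 1, 2 and 3, while Ighv1-62-3, 99.3% identical, had 159, 156 and 443 counts (37.6 ± 1.45 RPKM). Only 7.49% of the 50-base words of Ighv1-72 are found in no other Ighv gene. The V regions from the end of the leader to the end of the exon are shown to place the differences, sense strand, with differing bases in capitals.
Ighv1-72: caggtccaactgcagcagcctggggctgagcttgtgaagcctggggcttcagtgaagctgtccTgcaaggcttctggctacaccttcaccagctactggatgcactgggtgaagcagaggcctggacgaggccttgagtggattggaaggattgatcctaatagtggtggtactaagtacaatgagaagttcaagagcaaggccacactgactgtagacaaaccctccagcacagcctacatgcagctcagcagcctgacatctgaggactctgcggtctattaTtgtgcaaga
Ighv1-62-3: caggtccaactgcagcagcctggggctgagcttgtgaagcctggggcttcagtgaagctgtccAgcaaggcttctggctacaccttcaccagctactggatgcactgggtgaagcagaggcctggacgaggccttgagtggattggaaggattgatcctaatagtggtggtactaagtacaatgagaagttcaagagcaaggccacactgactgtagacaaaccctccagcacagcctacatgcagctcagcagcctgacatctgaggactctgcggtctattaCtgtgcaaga
They differ at 2 of 294 bases: T64A, in codon 22, and T285C, in codon 95, with positions counted from 1 at the first base after the leader and the base of Ighv1-72 given first. No source read here states how reads matching several genes were counted, and the part of that rule in these values was not tested. By contrast, Ighv1-62-2 and Ighv1-71, identical over the last 290 bases of their transcripts, were both counted. Ighv1-62-2 had 79, 92 and 235 counts (24.2 ± 2.31 RPKM) with 8.21% distinct words, and Ighv1-71 had 133, 120 and 341 counts (35.5 ± 1.27 RPKM) with 2.58%.

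The 20 listed genes known for recombination, folding or transcription of the locus all exceeded 1 RPKM in every library. The share of all genes above 1 RPKM is not given here, so this count is not read as a trait of the list. Of the 20, 16 passed the Poisson test, where 54.6% of all genes did. The share of all genes called rose with the count, from 26.2% below 300 to 53.4% from 1000 to 3000 summed counts. Many listed genes had more counts, such as Rag1 with 35135, 35349 and 72178 in replicates 1, 2 and 3. The 16 are therefore not set against genes of like count. None passed the quasi-likelihood spread test or the CASAVA comparison (edgeR, Benjamini-Hochberg over all genes). Rag1, which cuts the DNA with Rag2, averaged 401 ± 56.7 RPKM. Pax5, the B lineage transcription factor, averaged 257 ± 27.3 RPKM, and Ezh2, a Polycomb methyltransferase, 199 ± 17.9 RPKM. Yy1 averaged 59.2 ± 6.85 RPKM. Ctcf, which bounds chromatin loops, averaged 139 ± 1.40 RPKM, and Rad21, a cohesin subunit, 174 ± 16.3 RPKM. Dntt, which adds bases at the joints in pro-B cells, averaged 4.997 ± 0.51 RPKM.

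The sorted identity was checked on marker lists. All 6 pre-B markers exceeded 1 RPKM in every library. Their sums were 3917, 3972 and 3567 RPKM in replicates 1, 2 and 3. Pro-B markers summed to 438, 439 and 394 RPKM. Il7r and Cd93 made up most of the pro-B sum, with means of 215 and 144 RPKM. Igll1 averaged 34.1, Vpreb1 25.01, Dntt 4.997 and Kit 0.79 RPKM. Mature B markers summed to 210, 200 and 184 RPKM and plasma cell markers to 283, 262 and 273 RPKM, with 3 of the 6 plasma cell markers above 1 RPKM in every library. Most of the plasma cell sum came from Mzb1, with a mean of 197 RPKM. Xbp1 averaged 40.5, Sdc1 33.0, Prdm1 1.16, Jchain 0.97 ± 0.58 and Tnfrsf17 0.093 RPKM. Neutrophil markers, 6 of 6 above 1 RPKM in every library, summed to 1236, 1496 and 2211 RPKM and T cell markers to 8.93, 10.95 and 11.2 RPKM. The counts of markers above 1 RPKM are likewise not set against a share of all genes. In replicate 2, 5 of 6 pre-B markers and 1 of 6 pro-B markers had their highest level, where 36.5% of all genes tested did. Some of these were close to replicate 1, such as Cd79a at 737 and 744 RPKM and Ptprc at 110 and 115 RPKM in replicates 1 and 2. The neutrophil sum was highest in replicate 3. The part of these differences in the Ighv values was not tested.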

How the data were processed

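RNA was sequenced from 3 libraries of sorted pre-B cells. The deposited table holds whole-number read counts per Entrez gene with a gene length, and the authors counted with featureCounts against mm9, per the submitters' processing notes. The aligner, gene annotation, read length, strand setting and treatment of reads matching several genes were not given in the sources used here. The deposited lengths of the segments run from 282 to 457 bases, with a median of 294. Symbols, order and gene types came from RefSeq (GRCm38.p6) and GENCODE M21; no coordinates were taken from them, since the files use mm9.

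RPKM was computed from counts, lengths and TMM factors. Genes passing filterByExpr (minimum count 10, minimum total 15) were tested with edgeR 4.0.16, limma 3.58.1 and DESeq2 1.42.0 in R 4.3.3, on all genes, at an adjusted p of 0.05 (Benjamini-Hochberg). The edgeR quasi-likelihood fit used an estimated biological coefficient of variation of 13.1% and 5.92 prior degrees of freedom. Sequences were compared in Python 3.11.15 with Biopython 1.88, and figures drawn with matplotlib 3.10.9. The tests were tested on simulated data. In the CASAVA comparison the lone library is assumed to vary like the others.

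The segments and gene lists were chosen with earlier results of these data known, so no pattern here is independent of them. Segments were named by a rule: the 10 highest by level and by count, the highest and lowest of subfamilies, those past a test and the 3 highest pseudogenes. Segments named for their sequence or a count of 0 were chosen after their values were seen. Alternatives were other scalings, CPM, a filter on low counts, other summaries and leaving out each library.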

Additional observations from a re-analysis of the deposited data

How the results depend on the processing

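The log2 ratio of distal to proximal mean level was 0.29 ± 0.16 and kept its sign under every alternative but the median of segments, where it was −0.21. The other scalings cancel within a library and could not change this ratio. Leaving out a library gave a distal to proximal log2 ratio of 0.23 to 0.38. The functional to pseudogene log2 ratio was 2.73 and became 2.22 when only segments with at least 10 counts were kept, since that leaves out the lowest pseudogenes, and 2.67 to 2.78 without each library. The middle share of the summed level was 22.3% and 23.4% on the CPM scale. The Poisson test called 8 segments and 54.6% of all genes. Without each library it called 2 to 10 segments, where 25.7% to 43.3% of all genes were called. After the counts of replicate 3 were thinned to the depth of the smallest library, an alternative chosen after seeing the data, it called 5 segments and 46.4% of all genes; the quasi-likelihood spread test called 0 under each alternative run. The median log2 CPM difference of replicate 3 minus the CASAVA 1.8.2 libraries was −0.020, and −0.088 to −0.0061 without each of those libraries. Over 39 single segments and subfamilies, 202 of 203 values under alternatives moved by less than 1 SD. The other was the share of subfamily 8 on the CPM scale. Most of these values could not have moved further. Leaving out 1 of 3 libraries cannot shift a mean by 1 SD, and scaling factors cancel in shares. The tally is therefore no measure of robustness. Over all genes, the CASAVA comparison called 9 genes, 23 with no scaling factor, 36 with DESeq2 and 0 with all genes with a count, and the quasi-likelihood spread test called 2, 46 with all genes with a count and 0 with the robust fit. No paired analysis was possible because the series has a single group. Depth limits the low segments: under 10 summed counts, levels cannot be ordered.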
